A study of Bubalus bubalis with 36 samples.

Results

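Inguinal adipose tissue (IAT), a subcutaneous depot of the groin, was compared with pericardial adipose tissue (PCAT), a visceral depot around the heart sac, in the same 6 river buffaloes. The comparison used the 6 IAT and the 6 PCAT libraries, 12 of the 36 libraries of the series, paired by the animal that the sample titles name, and covered 17688 gene models across the genome. The animals were fattened river buffaloes aged 19 to 21 months, 3 males labelled Murrah and 3 females labelled Nili-Ravi, and each gave 1 library per depot. Sex and labelled breed cannot be told apart, and the study's own sample table lists all 6 animals as Murrah. The labels give no treatment. The other 4 depots of these animals, back (BSAT) and sternum (SSAT) subcutaneous fat and omental (OAT) and perirenal (PRAT) visceral fat, enter only where the difference between IAT and PCAT is set against theirs. Each library is whole tissue, so fewer cells of a type and less RNA per cell cannot be told apart in any value given here.

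Adipose tissue is laid down at many sites of the body from local mesenchyme. Cells of the limb and body wall keep transcription factors of the embryonic axis, above all HOX genes, whose order along 4 clusters follows the order of their expression from head to tail. Fat of the heart sac lies near the heart and beside the pericardium with its mesothelial lining, tissues patterned by GATA, T-box and other factors of the heart and visceral mesoderm. Subcutaneous and visceral fat also differ in the nerves, vessels, fibroblasts and immune cells that they hold, and in ruminants pericardial and perirenal fat are sites where brown-like fat genes are looked for.

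Levels are FPKM (fragments per kilobase of gene model, scaled to the mapped fragments of the library) as deposited. A difference is the mean over the 6 animals of log2(FPKM + 0.1) in IAT minus that in PCAT, with its standard error (SE), so a positive value is a higher level in IAT and the added 0.1 understates the change of low genes. Its p comes from a paired fit by limma over all gene models tested and is adjusted by the method of Benjamini and Hochberg, with 0.05 as the threshold. The p-values measure the spread between these 6 animals. The table holds no read counts, so the depth behind a single value is unknown and no counting interval is given. FPKM summed to 796645 in the lowest and 911384 in the highest of the 12 libraries. Some abundant gene models were listed at 0 in single libraries, so a 0 is written as listed and is not read as absence.

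IAT 4, PCAT 2 and PCAT 4 stood apart from the rest in markers of single cell types. The summed level of 21 mesothelium genes was 4345 FPKM in PCAT 4 and 2937 FPKM in PCAT 2, against 616.1 to 1265 FPKM in the other 10 libraries. The summed level of B and plasma cell genes was 877.3 FPKM in IAT 4 and 328.9 FPKM in PCAT 2, against 11.1 to 61 FPKM in the other 10, and that of T cell genes was 914 and 603.2 FPKM in the same 2 libraries. PCAT 4 was low in adipocyte genes, with a summed level of 3227 FPKM against 5217 to 15631 FPKM in the other 11 libraries.

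Of the 17688 gene models, 430 (2.43%) passed the threshold, 144 (0.814%) of them higher in IAT and 286 (1.62%) higher in PCAT. The difference had the same sign in 6 of 6 animals for 426 of the 430. The 6 libraries of one depot lay wholly above those of the other for 85 of the 144 and 180 of the 286 calls. Over all gene models tested, such separation was found for 135 (0.763%) with IAT above and 328 (1.85%) with PCAT above, and the median difference was -0.07. The share of calls higher in IAT was 33.5%, but it was 46.9% after quantile normalization of the 12 libraries, which gave 157 calls higher in IAT and 178 higher in PCAT. The count of calls was 181 without animal 1, 241 without animal 2, 185 without animal 3, 462 without animal 4, 198 without animal 5 and 128 without animal 6. Without animals 2 and 4 it was 408, of which 129 were higher in IAT and 279 in PCAT. Part of the calls were low in level, since 118 of the 430 had a mean FPKM under 1, and 92 had no gene symbol.

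HOX genes, which encode homeobox factors of axial position, differed across most of the family. Of 22 HOX genes tested and reported here, 20 were higher in IAT and 0 in PCAT (90.9% called, against 2.43% of all gene models). The median difference was 2.5 against -0.07 over all gene models. The summed level of 26 HOX genes in the table was 83.3 to 168.4 FPKM in IAT (median 130.2) and 24.5 to 43.9 FPKM in PCAT (median 31.5), with no overlap. In 18 of the 22 genes every IAT library lay above every PCAT library, against 0.763% of all gene models.

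The HOXC cluster gave the widest differences. HOXC6 was at 8.73 to 20.5 FPKM in IAT (median 17.9) and 0 to 0.545 FPKM in PCAT (median 0). The difference was 6.63 ± 0.38 (adjusted p = 0.000617), and 4 of the 6 PCAT libraries were listed at 0. HOXC9 was at 9.84 to 21.8 FPKM in IAT (median 18.6) and 0 to 1.05 FPKM in PCAT (median 0.321), a difference of 5.64 ± 0.57 (adjusted p = 0.00417). HOXC8 was at 1.65 to 5.37 FPKM in IAT (median 3.41) and 0 to 0.139 FPKM in PCAT (median 0), a difference of 4.87 ± 0.31 (adjusted p = 0.00104). For these 3 genes the lowest IAT library lay above the highest PCAT library. HOXC10 and HOXC4 were lower in level and also separated the depots, with 0.337 to 0.857 FPKM in IAT (median 0.614) and 0 to 0.0288 FPKM in PCAT (median 0) for HOXC10 and 0.327 to 1.74 FPKM in IAT (median 0.981) and 0.0454 to 0.187 FPKM in PCAT (median 0.0961) for HOXC4. HOXC5 rose as well (1.62 ± 0.27, adjusted p = 0.031), with 1 PCAT library above the lowest IAT library.

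In the HOXA cluster, HOXA9 was at 2.37 to 5.04 FPKM in IAT (median 4.2) and 0.0231 to 0.128 FPKM in PCAT (median 0.0972), a difference of 4.46 ± 0.18 (adjusted p = 0.000112). HOXA10 was at 1.37 to 6.92 FPKM in IAT (median 2.42) and 0 to 0.137 FPKM in PCAT (median 0), with 5 of 6 PCAT libraries listed at 0 and a difference of 4.69 ± 0.36 (adjusted p = 0.00148). HOXA7, HOXA6, HOXA5 and HOXA2 were higher in IAT by 3.11, 2.31, 2.28 and 1.90, each without overlap.

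Some genes of the HOXB and HOXD clusters were at a clear level in PCAT as well as in IAT. HOXB9 was at 0.918 to 3.81 FPKM in IAT (median 1.81) and 0 to 0.181 FPKM in PCAT (median 0) (3.99 ± 0.30, adjusted p = 0.00141). HOXB7 and HOXB6 were higher in IAT by 2.65 and 2.67, and HOXB8, low in both depots, by 1.23. HOXB5 at 3.7 to 7.21 FPKM in IAT (median 5.41) and 1.998 to 3.88 FPKM in PCAT (median 2.7) missed the threshold (adjusted p = 0.0503), and so did HOXB3 at 20.5 to 34.7 FPKM in IAT (median 25.4) and 12.2 to 26.7 FPKM in PCAT (median 16.1) (adjusted p = 0.107). HOXD4, the most abundant HOX gene that was called, was at 16.9 to 40.3 FPKM in IAT (median 25.4) and 2.94 to 10.5 FPKM in PCAT (median 7.8), a difference of 1.90 ± 0.19 (adjusted p = 0.00417). HOXD8, HOXD3 and HOXD10 were higher in IAT by 2.91, 1.83 and 1.36.

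The 2 of these HOX genes that missed the threshold, HOXB3 and HOXB5, belong to paralog groups 1 to 5, the end of the clusters that is expressed nearest the head. That split was made after the values were seen. In groups 1 to 5, 6 of 8 genes were called and differences ran from 0.62 to 2.35 with a median of 1.87. In groups 6 to 10, 14 of 14 were called and differences ran from 1.23 to 6.63 with a median of 3.01. The smaller values among the latter belong to HOXB8 and HOXD10, which stayed under 0.3 FPKM in every IAT library, where the added 0.1 compresses the difference.

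**Figure D1:**
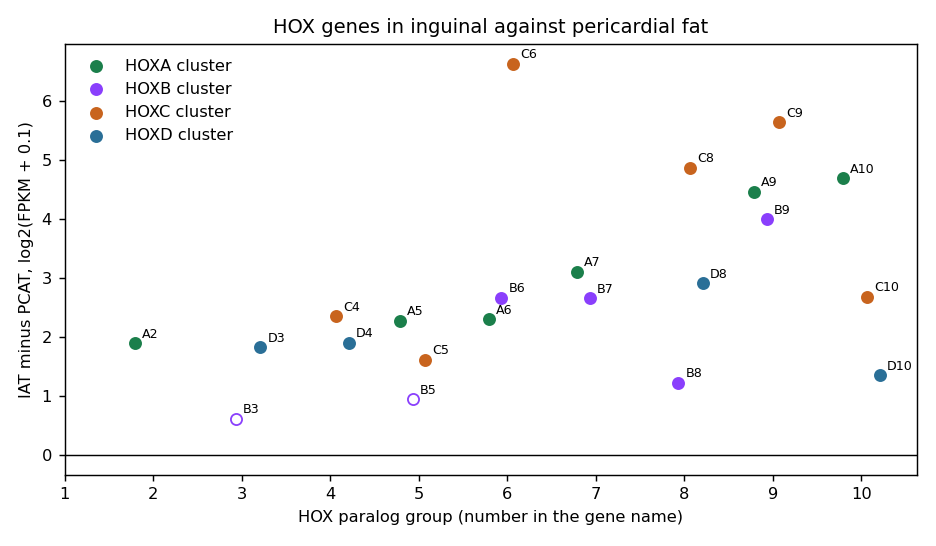
Difference between IAT and PCAT (vertical axis, mean over 6 animals of log2(FPKM + 0.1) in IAT minus PCAT) of 22 HOX genes, placed by the paralog number in the gene name (horizontal axis) and coloured by cluster. Filled points passed the threshold and open points (HOXB3, HOXB5) did not, and HOXC6, HOXC9 and HOXC8 lie highest at 6.63, 5.64 and 4.87.

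Without any 1 animal, 17 to 20 of the 22 HOX genes were called higher in IAT and 0 higher in PCAT. The count was 20 without animals 2 and 4, and 18 with the mesothelial level as a covariate. The size of the differences depended on the value added before the logarithm. The median was 1.28 with 1 added (18 called) and 3.33 with 0.01 added (19 called), and the difference of HOXC6 ran from 3.95 to 8.96 over the alternatives.

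Several limb factors were higher in IAT as well, among them TBX4 and PITX1 of the hind limb. Most genes of limb and body wall patterning did not pass the test. Of 29 tested genes of limb and body wall patterning, 7 were higher in IAT, 3 were higher in PCAT and 19 did not pass. The share called was 34.5%, against 2.43% of all gene models. The median difference was 0.52 (0.69 without the 1 gene listed at 0 in all libraries of a depot). TBX4, the T-box factor of the hind limb, had the largest positive difference of the genes named here. It was at 39 to 111 FPKM in IAT (median 72.2) and 0 to 2.13 FPKM in PCAT (median 0.547), and 2 PCAT libraries were listed at 0. The difference was 7.16 ± 0.64 (adjusted p = 0.00281), with no overlap. PITX1, the homeobox factor that acts upstream of TBX4 in the hind limb, was at 1.2 to 5.62 FPKM in IAT (median 2.45) and 0 to 0.173 FPKM in PCAT (median 0), a difference of 4.51 ± 0.24 (adjusted p = 0.000504), and 5 of 6 PCAT libraries were listed at 0.

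EMX2, a homeobox factor of the urogenital tract and the limb girdles, was at 9.19 to 34.2 FPKM in IAT (median 20.1) and 0.265 to 3.99 FPKM in PCAT (median 1.5), a difference of 3.74 ± 0.40 (adjusted p = 0.0054). SHOX2, a factor of the upper limb segments, was at 22 to 83.9 FPKM in IAT (median 42.4) and 2.37 to 17.3 FPKM in PCAT (median 5.17), a difference of 2.90 ± 0.42 (adjusted p = 0.019). LMX1B, which marks the dorsal limb, and IRX5 of the Iroquois family were higher in IAT by 1.98 and 1.86, each with the depots apart. DMRT2, a factor of the somite that was not on the list, was at 10.5 to 47.2 FPKM in IAT (median 22.1) and 0 to 0.688 FPKM in PCAT (median 0.0816), a difference of 6.73 ± 0.48 (adjusted p = 0.00121).

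TBX15, a factor of the skeleton that is also known as a marker of subcutaneous fat, was at 40.8 to 88.7 FPKM in IAT (median 65) and 19.2 to 33.2 FPKM in PCAT (median 30.3). Its difference of 1.17 ± 0.22 was close to the threshold (adjusted p = 0.044), and it passed in 6 of 18 alternatives, those within 1 sex not counted. TBX3 was at 5.28 to 11.6 FPKM in IAT (median 9.91) and 3.1 to 7.01 FPKM in PCAT (median 4.9) and did not pass (adjusted p = 0.217).

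The 3 limb factors that were higher in PCAT were TBX5, LHX2 and DLX4. TBX5, which acts in the fore limb and in the heart, was at 0.992 to 2.52 FPKM in IAT (median 1.61) and 5.48 to 13.9 FPKM in PCAT (median 8.6), a difference of -2.35 ± 0.20 (adjusted p = 0.00236), so that the T-box pair TBX4 and TBX5 went in opposite directions. LHX2, a LIM homeobox factor, was at 0 to 0.232 FPKM in IAT (median 0.111) and 0.176 to 1.33 FPKM in PCAT (median 0.894), a difference of -2.19 ± 0.21 (adjusted p = 0.00347). DLX4 was at 0.189 to 0.395 FPKM in IAT (median 0.362) and 0.656 to 1.7 FPKM in PCAT (median 1.18), a difference of -1.57 ± 0.19 (adjusted p = 0.0098). The depots did not overlap in TBX5 and DLX4 and overlapped in LHX2. Without animal 3, 4 of the 29 genes were higher in IAT, and without animal 6, 3 were higher in IAT and 2 in PCAT.

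**Figure D2:**
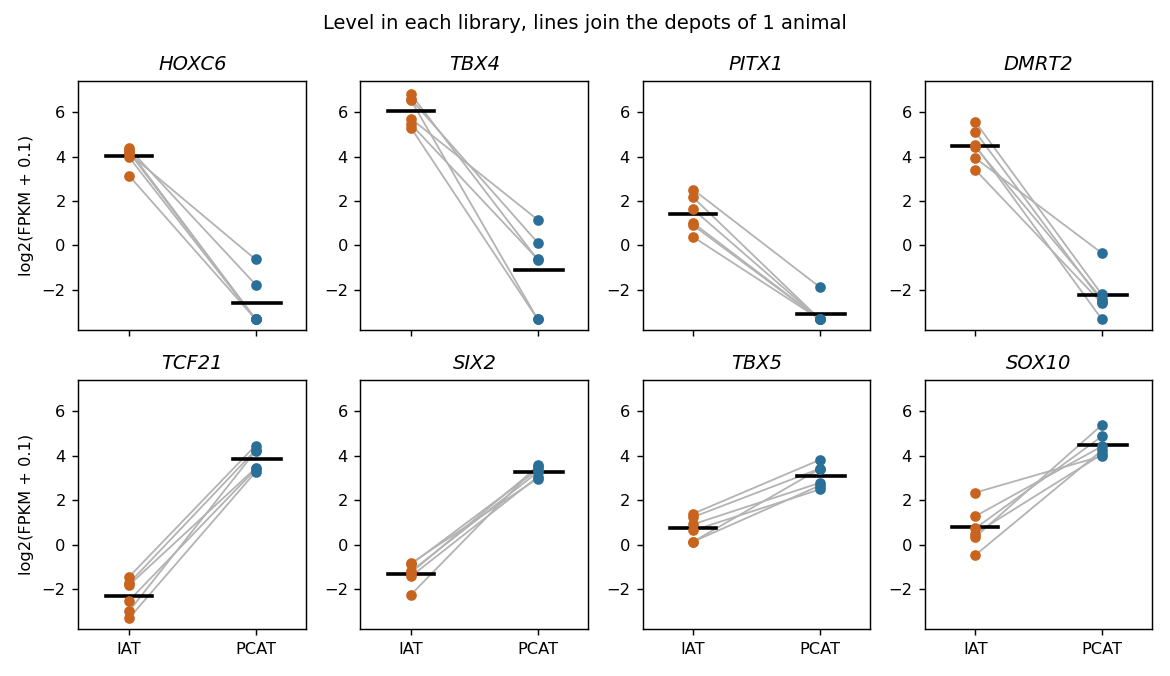
Level on the log2(FPKM + 0.1) scale (vertical axis) of 8 genes in the IAT and PCAT library of each animal, with a line joining the depots of 1 animal and a black bar at the mean of 6 libraries. The upper genes are higher in IAT and the lower genes higher in PCAT in 6 of 6 animals, and points at the bottom of the scale are values listed at 0.

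GATA4, TCF21, SIX2 and WT1, factors known from the heart and the visceral mesoderm, were near 0 in IAT and clearly expressed in PCAT. Of 33 tested genes of that list, 5 were higher in PCAT and 1 was higher in IAT (18.2% called, against 2.43% of all gene models). The median difference was -0.17, and most members did not pass the test. Without animal 6, 3 were higher in PCAT. GATA4, a zinc finger factor of the heart and the proepicardium, was listed at 0 in 6 of 6 IAT libraries. In PCAT animals 1 to 6 it was at 10.6, 6.5, 8.3, 6.85, 9.78 and 11.3 FPKM (adjusted p = 1.40e-05). The symbol has a second gene model in the table, and the more abundant one is given. Its relative GATA6 was at 12.9 to 27.1 FPKM in IAT (median 17.9) and 11.1 to 175 FPKM in PCAT (median 38.3) and did not pass (adjusted p = 0.373).

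TCF21, a factor of epicardial and visceral fibroblast lineages, was at 0 to 0.263 FPKM in IAT (median 0.127) and 9.51 to 21.9 FPKM in PCAT (median 14.5), a difference of -6.15 ± 0.25 (adjusted p = 0.000113). SIX2, a homeobox factor known from nephron progenitors, was at 0.11 to 0.456 FPKM in IAT (median 0.325) and 7.73 to 11.8 FPKM in PCAT (median 9.85), a difference of -4.60 ± 0.25 (adjusted p = 0.000504). In both genes every PCAT library lay far above every IAT library. WT1, a factor of mesothelium, epicardium and visceral fat progenitors, was at 0 to 0.113 FPKM in IAT (median 0) and 0.978 to 19.9 FPKM in PCAT (median 2.76), with 5 of 6 IAT libraries listed at 0. The difference was -4.97 ± 0.64 (adjusted p = 0.0114), and the highest PCAT libraries were those of animal 4 at 19.9 FPKM and animal 2 at 10.6 FPKM. MEIS2, a partner of HOX proteins whose values equal those of another gene model in the table, was at 3.39 to 6.82 FPKM in IAT (median 5.09) and 8.89 to 20.8 FPKM in PCAT (median 14), a difference of -1.42 ± 0.23 (adjusted p = 0.0273). OSR2, an odd-skipped factor, was the member higher in IAT, at 1.05 to 3.12 FPKM in IAT (median 1.86) and 0.0778 to 0.505 FPKM in PCAT (median 0.181) (2.78 ± 0.23, adjusted p = 0.00216).

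Most genes of heart muscle were low in both depots. Of the 16 in the table, all but CASQ2, RYR2 and GJA1 stayed at or under 1.81 FPKM in every library. The summed level of the list was 343.2 to 826.1 FPKM in IAT and 515.3 to 1757 FPKM in PCAT, most of it from GJA1, a connexin that many cell types express, at 232 to 773 FPKM in IAT (median 505) and 396 to 1631 FPKM in PCAT (median 432). Of 10 tested, 1 was called, CASQ2, the calcium-binding protein of the heart's sarcoplasmic reticulum, which was higher in PCAT at 0 to 0.583 FPKM in IAT (median 0.319) and 1.2 to 13.2 FPKM in PCAT (median 3.1) (-3.48 ± 0.54, adjusted p = 0.0246). The troponins TNNT2 and TNNI3 stayed at or under 0.0843 and 0.0112 FPKM in every library, and NPPA and MYBPC3 at or under 0.189 and 0.168 FPKM. Of 22 tested skeletal muscle genes, 1 was called, XIRP2, an actin-binding protein, at 0 to 0.0705 FPKM in IAT (median 0) and 0.248 to 0.846 FPKM in PCAT (median 0.71) (-2.64 ± 0.23, adjusted p = 0.00232). ACTA1 and CKM, the actin and creatine kinase of skeletal muscle, were under 0.3 FPKM in all 12 libraries. With 2.43% of all gene models called, 1 call in lists of 10 and 22 genes is near the background.

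Genes of Schwann cells and nerve were called in 1 direction. Of 22 tested, 5 were higher in PCAT and 0 in IAT (22.7% called, against 2.43% of all gene models). The median difference was -0.75. The summed level of the list was 239.4 to 336.5 FPKM in IAT (median 275.8) and 472.4 to 945.4 FPKM in PCAT (median 617.1), higher in PCAT in 6 of 6 animals and without overlap. SOX10, the transcription factor of neural crest and glia, was at 0.616 to 4.95 FPKM in IAT (median 1.43) and 15.7 to 41.5 FPKM in PCAT (median 20.04), a difference of -3.71 ± 0.42 (adjusted p = 0.00722). SCN7A, a sodium channel of Schwann cells, was at 9.81 to 112 FPKM in IAT (median 23.9) and 182 to 488 FPKM in PCAT (median 252), a difference of -3.37 ± 0.47 (adjusted p = 0.0169). CDH19, a cadherin of Schwann cell precursors, was at 2.84 to 14.9 FPKM in IAT (median 6.56) and 35.4 to 128 FPKM in PCAT (median 59.2), a difference of -3.34 ± 0.50 (adjusted p = 0.0223). In these 3 genes all PCAT libraries lay above all IAT libraries.

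FOXD3, a neural crest factor, and NCAM1, an adhesion molecule whose values equal those of another gene model, were higher in PCAT, with differences of -2.32 and -1.21. The myelin genes PMP22, MBP and PRX did not pass the test, with differences of 0.43, -0.80 and -0.12. Neurofilament genes of the axon, NEFL, NEFM and NEFH, were at or under 0.373, 0.703 and 0.523 FPKM and were not tested. Without animal 1 and without animal 6, 1 of the 22 genes was called in each case, 3 were called without animal 3, and 5 were called with the mesothelial covariate.

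Of 48 tested axon guidance genes, 4 were higher in PCAT and 1 in IAT (10.4% called, against 2.43% of all gene models). The median difference was -0.24. ROBO2, a receptor for SLIT proteins, was at 27 to 85.1 FPKM in IAT (median 43) and 149.8 to 356 FPKM in PCAT (median 249) (-2.39 ± 0.24, adjusted p = 0.00417), with no overlap. The netrin receptor UNC5D, the ephrin receptor EPHA7 and the semaphorin SEMA7A were higher in PCAT, with differences of -1.64, -1.32 and -0.84. The ephrin receptor EPHA3 was higher in IAT at 20.2 to 85.4 FPKM in IAT (median 40.6) and 3.34 to 49.6 FPKM in PCAT (median 8.38) (2.15 ± 0.30, adjusted p = 0.0159), with overlapping ranges. Without any 1 animal, 1 or 2 genes of this list were called higher in PCAT, and 0 were called higher in IAT without animal 2 or animal 6.

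**Figure D3:**
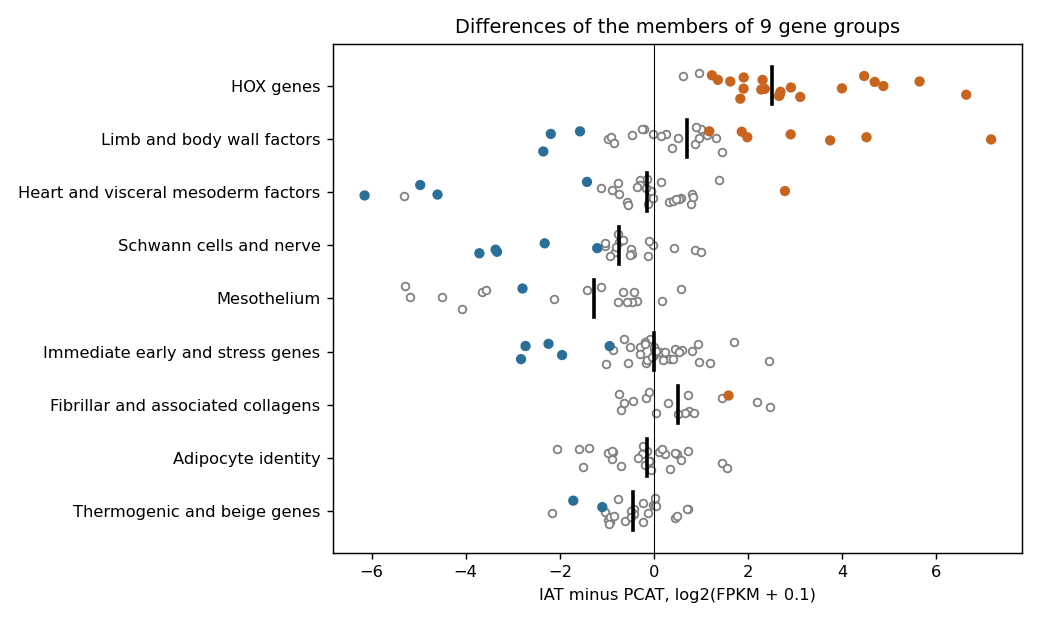
Differences between IAT and PCAT (horizontal axis, log2(FPKM + 0.1), positive when higher in IAT) of the tested members of 9 gene groups. Filled points passed the threshold (orange higher in IAT, blue higher in PCAT), open points did not, black bars are medians, and genes listed at 0 in all libraries of a depot are left out, so the HOX bar stands at 2.5, the Schwann and nerve bar at -0.75 and the mesothelium bar at -1.28.

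Genes of the mesothelium, the lining of the body cavities, were high in single PCAT libraries. Of 20 tested, 2 were higher in PCAT and 0 in IAT (10% called, against 2.43% of all gene models). The median difference was -1.77 (-1.28 without the 2 genes listed at 0 in all IAT libraries). The summed level of the list was 616.1 to 813.1 FPKM in IAT and 647 to 4345 FPKM in PCAT. The other 4 PCAT libraries, without those of animals 2 and 4, reached 1265 FPKM. KRT8, a keratin of the lining, was at 41.8, 1302, 56.3, 1994, 3.57 and 22.1 FPKM in PCAT animals 1 to 6 and at 0.774 to 5.17 FPKM (median 2.12) in IAT. Its difference of -5.18 ± 1.38 did not pass the test (adjusted p = 0.115).

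MSLN, the gene of mesothelin, was listed at 0 in all IAT libraries and was at 0.465, 32.8, 1.83, 17.1, 0 and 0.572 FPKM in PCAT animals 1 to 6 (adjusted p = 0.103). The called members were CALB2, the calcium-binding protein calretinin, and CLDN1, a claudin of tight junctions. CALB2 was listed at 0 in all IAT libraries and reached 0.172 to 3.07 FPKM (median 0.467) in PCAT (adjusted p = 0.0351). CLDN1 was at 5.02 to 18.5 FPKM in IAT (median 7.003) and 10.3 to 455 FPKM in PCAT (median 37.9) (-2.81 ± 0.49, adjusted p = 0.0349). Without animals 2 and 4, neither was called (adjusted p = 0.0731 for CALB2 and 0.0643 for CLDN1). With 4 animals left, the difference of CLDN1 was -2.01 and the median of the list -1.09, while CALB2 was still above 0 in all 4 PCAT libraries. Of the list, 0 genes were called without animal 1, 2, 3 or 6, and 1 without animal 4.

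LRP2, DSP and ALDH1A2, among the largest differences in favour of PCAT, were also highest in PCAT 2 and PCAT 4. LRP2, the endocytic receptor megalin, was at 20.9, 671, 22.7, 604, 2.36 and 19.1 FPKM in PCAT animals 1 to 6 and at 0 to 2.28 FPKM (median 0.48) in IAT (-6.61 ± 0.82, adjusted p = 0.0102). DSP, the desmosomal protein desmoplakin, was at 0.298 to 7.87 FPKM in IAT (median 1.57) and 4.35 to 221 FPKM in PCAT (median 23.3) (-4.26 ± 0.74, adjusted p = 0.0351). ALDH1A2, which makes retinoic acid in epicardium and mesothelium, was at 0.829 to 3.29 FPKM in IAT (median 0.992) and 6.29 to 88.6 FPKM in PCAT (median 15.7) (-3.75 ± 0.30, adjusted p = 0.00159). With the mesothelial level as a covariate, the adjusted p was 0.0593 for LRP2, 0.177 for DSP and 0.0188 for ALDH1A2. Under the same covariate it was 0.0052 for TCF21, 0.0103 for SIX2, 0.0356 for WT1 and 0.0103 for SOX10. SCEL, the gene of sciellin, a protein of stratified epithelia, was at 0 to 3.47 FPKM in IAT (median 0) and 8.06 to 26.6 FPKM in PCAT (median 11.6), and 4 IAT libraries were listed at 0 (-5.64 ± 0.95, adjusted p = 0.031). Its highest library was PCAT 5, not PCAT 2 or PCAT 4, and its adjusted p with the covariate was 0.0595.

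**Figure D4:**
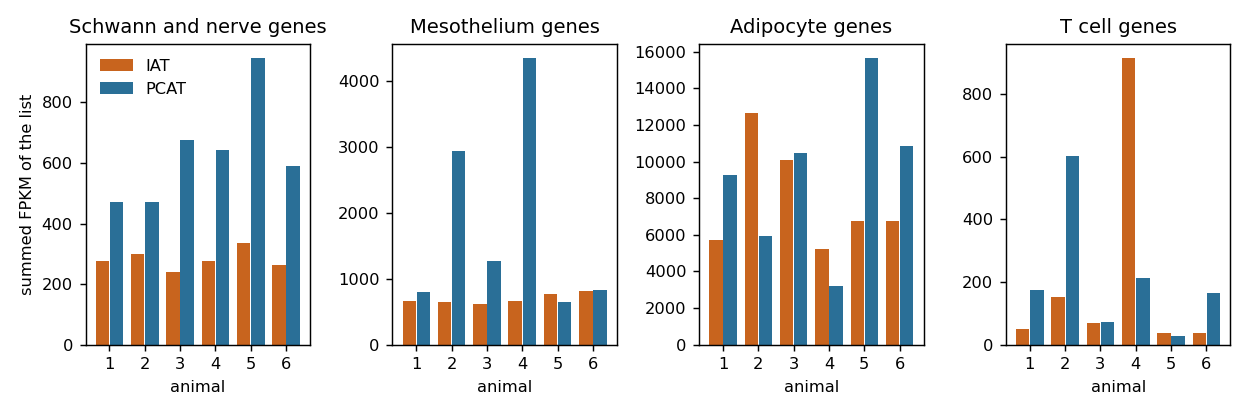
Summed FPKM (vertical axis) of the Schwann cell and nerve, mesothelium, adipocyte and T cell lists in the IAT and PCAT library of each of the 6 animals (horizontal axis). The Schwann and nerve sum is higher in PCAT in 6 of 6 animals, the mesothelium sum is highest in PCAT 4 and PCAT 2, the adipocyte sum is lowest in PCAT 4, and the T cell sum is highest in IAT 4.

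Genes that define adipocytes were high in both depots. ADIPOQ, the gene of adiponectin, was at 526 to 1618 FPKM in IAT (median 777) and 47.2 to 2257 FPKM in PCAT (median 1879.5), where the lowest value was that of PCAT 4 (-0.15 ± 0.72, adjusted p = 0.957). FABP4, the fatty acid carrier of adipocytes, was at 180.5 to 554 FPKM in IAT (median 230.5) and 182 to 450.5 FPKM in PCAT (median 204) (adjusted p = 0.898). PPARG, the receptor that drives fat cell formation, was at 267 to 674 FPKM in IAT (median 340.2) and 352 to 748 FPKM in PCAT (median 427) (adjusted p = 0.636). Of 27 tested genes of adipocyte identity 0 were called, and the median difference was -0.15. Of 48 lymphocyte genes tested, 0 were called either way, with a median difference of -0.43. With 2.43% of all gene models called, counts of 0 in lists of this size are near the background.

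Few genes of lipid and energy metabolism were called. Of 215 tested genes of adipocyte identity, triglyceride assembly, fatty acid synthesis and oxidation, the citrate cycle and the respiratory chain, 1 was called, against 2.43% of all gene models, and the median difference was -0.14. The called gene was ME3, a mitochondrial malic enzyme, higher in IAT at 4.46 to 8.59 FPKM in IAT (median 6.38) and 2.55 to 5.15 FPKM in PCAT (median 3.11) (0.89 ± 0.14, adjusted p = 0.0273). A gene model with the symbol MT-ND5, outside these lists, was called higher in PCAT (-0.63 ± 0.11, adjusted p = 0.0371). The assembly places that model on chromosome X, so its level is not read as that of the mitochondrial gene. Of 60 tested respiratory chain genes 0 were called, and 52 had a negative and 8 a positive difference. Their median was -0.13, against -0.07 over all gene models. The 60 genes were measured in the same 6 animals, so the count of signs is not a test. LIPE, the hormone-sensitive lipase, was at 329 to 871 FPKM in IAT (median 421) and 27.5 to 905 FPKM in PCAT (median 479), with a difference of 0.57 ± 0.58 (adjusted p = 0.707). GPD1, which supplies glycerol phosphate for triglycerides, was at 276 to 1365 FPKM in IAT (median 405) and 110.2 to 2716 FPKM in PCAT (median 1521) and LPL, the lipoprotein lipase, at 121 to 383 FPKM in IAT (median 224) and 66 to 1021 FPKM in PCAT (median 601). GPD1 and LPL were both higher in PCAT in 4 of 6 animals and did not pass the test (-0.98 ± 0.67 and -0.88 ± 0.52). HADHA of fatty acid oxidation, LDHB of lactate conversion and the mitochondrial chaperone HSPD1 differed by -0.17 ± 0.27, 0.11 ± 0.19 and -0.55 ± 0.17, none past the threshold.

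Of 26 thermogenic and beige fat genes tested, 2 were higher in PCAT and 0 in IAT (7.69% called, against 2.43% of all gene models). The median difference was -0.46. PRDM16, a regulator of brown and beige fat cell fate, was at 6.73 to 11.8 FPKM in IAT (median 7.99) and 14 to 23.2 FPKM in PCAT (median 17.3), a difference of -1.10 ± 0.14 (adjusted p = 0.0114), with no overlap. UCP1, the uncoupling protein of brown fat, stayed at or under 0.9996 FPKM in all 12 libraries. It was at 0.0032 to 0.153 FPKM in IAT (median 0.00937) and 0.0183 to 0.9996 FPKM in PCAT (median 0.382), a difference of -1.72 ± 0.32 (adjusted p = 0.0413), with the ranges of the depots overlapping. TMEM26, a beige cell marker in mice, was at 11 to 72.9 FPKM in IAT (median 31.7) and 46 to 101 FPKM in PCAT (median 54.4) and did not pass (adjusted p = 0.237). EBF2, a factor of brown fat precursors, and the calcium pump ATP2A2 had differences of -0.63 and -0.42, likewise not past the threshold. Of this list 0 genes were called without animal 6, and 1 without animal 1, 2, 3 or 5.

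Matrix genes were among the most abundant. Of 126 collagens, matrix proteins and their processing enzymes tested, 4 were higher in IAT and 3 in PCAT (5.56% called, against 2.43% of all gene models), and the median difference was 0.13. COL1A1, the main chain of type I collagen, was at 9470.1 to 96236 FPKM in IAT (median 43388) and 1064 to 41682 FPKM in PCAT (median 5397). It was higher in IAT in 6 of 6 animals, yet its difference of 2.47 ± 0.63 did not pass the test (adjusted p = 0.103), and PCAT 1 at 41682 FPKM lay above 2 of the IAT libraries. COL3A1 of type III collagen was higher in IAT in 6 of 6 animals in the same way (0.85 ± 0.23, adjusted p = 0.115).

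The called matrix genes were less abundant. COL12A1, a collagen bound to fibrils, was at 23.6 to 58.4 FPKM in IAT (median 36.6) and 8.02 to 17.8 FPKM in PCAT (median 12.7) (1.58 ± 0.11, adjusted p = 0.00116), and LOXL4, a lysyl oxidase that crosslinks collagen, with a median of 63.4 FPKM in IAT and 22.4 FPKM in PCAT (1.47 ± 0.19, adjusted p = 0.0131). In both genes the depots did not overlap. MATN4, a matrilin, and COL28A1 were higher in IAT by 3.34 and 2.39 with overlapping ranges. Higher in PCAT were P4HA1, a prolyl hydroxylase of collagen, COL7A1 of anchoring fibrils and SPARCL1, with differences of -0.68, -1.11 and -1.30 and no overlap. The proteoglycans VCAN and FMOD had differences of 0.84 ± 0.52 and 0.94 ± 0.82 and did not pass. Among the proteases, MMP14, a membrane collagenase, was higher in IAT (0.75 ± 0.10, adjusted p = 0.0159), and ADAMTS20 and MMP17 were higher in PCAT (-2.78 and -1.97).

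Of 27 tested markers of fibroblasts and progenitors, 2 were called, both higher in IAT, against 0.814% of all gene models. PI16, a marker of adventitial fibroblasts and, in mice, of early fat cell progenitors, was at 108 to 1124 FPKM in IAT (median 474) and 11.8 to 129.6 FPKM in PCAT (median 36.8) (3.71 ± 0.48, adjusted p = 0.0126), and the highest PCAT library lay above the lowest IAT library. S100A4 was higher by 1.24 ± 0.15 (adjusted p = 0.00869). PDGFRA, DPP4 and DCN, which mark the same cells more broadly, had differences of 0.81 ± 0.32, 0.56 ± 0.32 and 1.22 ± 0.52 and did not pass. DLK1, a membrane protein of preadipocytes and an imprinted gene, was higher in PCAT. It was at 0.441 to 37.4 FPKM in IAT (median 6.13) and 57.5 to 269 FPKM in PCAT (median 72.6), with a difference of -4.49 ± 0.84 (adjusted p = 0.044), and the IAT libraries were spread from under 1 FPKM to 37.4 FPKM. PLAGL1, another imprinted gene, was at 108 to 169 FPKM in IAT (median 134) and 182 to 262 FPKM in PCAT (median 235) (-0.71 ± 0.13, adjusted p = 0.0425). Of 17 tested imprinted growth genes, 2 were higher in PCAT and 0 in IAT (11.8% called, against 2.43% of all gene models).

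Secreted signals and their receptors differed gene by gene. In the WNT pathway 4 of 44 tested genes were higher in IAT and 0 in PCAT (9.09% called, against 2.43% of all gene models). The median difference was 0.03. WNT2, a ligand, was at 25.1 to 301 FPKM in IAT (median 79.7) and 8.33 to 21.1 FPKM in PCAT (median 13.6) (2.45 ± 0.46, adjusted p = 0.0448), with no overlap. SFRP2, which binds WNT ligands outside the cell, was at 1.49 to 7.54 FPKM in IAT (median 6.2) and 0.246 to 2.47 FPKM in PCAT (median 0.371) (2.80 ± 0.50, adjusted p = 0.0367). The ligand WNT3 and RSPO3, which strengthens WNT signals, were higher in IAT by 2.25 and 2.16. Without animal 1 or 2 there were 2 WNT pathway calls, and without animal 3, 5 or 6 there was 1.

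In the BMP and TGF-beta pathway 1 of 44 tested genes was higher in IAT and 2 in PCAT, against 0.814% and 1.62% of all gene models. The ligand BMP5 was at 4.68 to 10.7 FPKM in IAT (median 6.24) and 1.17 to 2.59 FPKM in PCAT (median 1.65) (1.90 ± 0.27, adjusted p = 0.0176). BMPER, a secreted regulator of BMP ligands, was at 0.153 to 0.971 FPKM in IAT (median 0.438) and 1.67 to 9.47 FPKM in PCAT (median 5.19) (-3.22 ± 0.35, adjusted p = 0.00593), and the ligand GDF10 was higher in PCAT, with a difference of -2.46. Of 13 tested genes of the IGF system, 1 was higher in IAT and 1 in PCAT (15.4% called, against 2.43% of all gene models). Both IGF-binding protein cutters of the pappalysin family were called, in opposite directions. PAPPA2 was at 1.74 to 61.3 FPKM in IAT (median 15.1) and 0 to 1.91 FPKM in PCAT (median 0.357) (4.54 ± 0.60, adjusted p = 0.013), and PAPPA at 0.739 to 1.98 FPKM in IAT (median 1.05) and 2.98 to 6.7 FPKM in PCAT (median 4.26) (-1.79 ± 0.24, adjusted p = 0.0143). Of 25 tested genes of the FGF and hedgehog pathways, 2 were higher in PCAT and 0 in IAT (8% called). FGF10 and its receptor FGFR2 were both higher in PCAT, with differences of -1.51 and -1.74. AGTR1, a receptor for angiotensin II, was higher in IAT at 7.49 to 12.9 FPKM in IAT (median 10.3) and 0.423 to 1.29 FPKM in PCAT (median 0.742) (3.62 ± 0.27, adjusted p = 0.0013), with no overlap.

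Other genes with large differences belonged to no gene list. Higher in IAT were TMC1, a channel subunit known from the hair cells of the inner ear, at 1.5 to 104 FPKM in IAT (median 10.2) and 0 to 8.23 FPKM in PCAT (median 0.25) (4.48 ± 0.28, adjusted p = 0.000953), and MALRD1, with a difference of 4.29 ± 0.42 (adjusted p = 0.00411). Higher in PCAT were CPXM2, a secreted protein of the carboxypeptidase family, at 5.9 to 26.9 FPKM in IAT (median 22) and 108 to 439 FPKM in PCAT (median 222) (-3.75 ± 0.26, adjusted p = 0.00116), and SORCS1, a sorting receptor known from neurons, at 0.368 to 1.63 FPKM in IAT (median 0.539) and 5.27 to 20.1 FPKM in PCAT (median 10.6) (-3.68 ± 0.46, adjusted p = 0.0102). IQCA1 was higher in PCAT at 0.106 to 2.05 FPKM in IAT (median 0.611) and 4.1 to 32.7 FPKM in PCAT (median 11.7) (adjusted p = 0.0262), and so was KLHDC7A, with a difference of -3.94.

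Immune and vascular genes gave single calls. With 2.43% of all gene models called, 1 call in a list of 20 or 22 genes is near the background. C7, a complement component, was at 83.5 to 505 FPKM in IAT (median 254) and 566 to 2031 FPKM in PCAT (median 1139.8) (-2.33 ± 0.33, adjusted p = 0.0184), with PCAT wholly above, and was the 1 call among 20 complement genes. SPP1, the gene of osteopontin, was the 1 call among 22 macrophage genes, at 1.88 to 32.3 FPKM in IAT (median 4.51) and 15.6 to 159.7 FPKM in PCAT (median 46) (-2.97 ± 0.56, adjusted p = 0.0433). MS4A2, a chain of the IgE receptor of mast cells, was higher in IAT at 3.6 to 15.5 FPKM in IAT (median 12.7) and 0.312 to 3.33 FPKM in PCAT (median 1.86) (2.85 ± 0.47, adjusted p = 0.0296), and so was the chemokine CCL24 at 2.46 to 16 FPKM in IAT (median 7.81) and 0.564 to 3.75 FPKM in PCAT (median 1.66) (adjusted p = 0.0351). MS4A2 was the 1 call among 7 mast cell and granulocyte genes, and CCL24 the 1 call among 20 chemokine genes. RGS5, a pericyte gene, was higher in PCAT (-1.22 ± 0.22, adjusted p = 0.0362), the 1 call among 14 smooth muscle and pericyte genes. Of 23 blood endothelium genes 0 were called, with a median difference of -0.23. Of 9 tested thymus genes 0 were called, with a median difference of -0.24. The summed level of the 17 thymus genes in the table was 70.4 to 180 FPKM in IAT and 74.2 to 115 FPKM in PCAT. Among them, FOXN1, the factor of thymic epithelium, was listed at 0 in all 12 libraries, and the thymocyte genes RAG1 and DNTT were at or under 0.01003 FPKM.

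Of 21 tested genes of epithelium and mammary gland, 1 was higher in IAT and 2 in PCAT (14.3% called, against 2.43% of all gene models). ELF5, a factor of the mammary gland, was at 0.377 to 0.713 FPKM in IAT (median 0.433) and 0.0261 to 0.166 FPKM in PCAT (median 0.094) (1.66 ± 0.19, adjusted p = 0.00664). The summed level of the 31 genes of this list in the table was 1595 to 2936 FPKM in IAT and 1628 to 2584 FPKM in PCAT. Of these 31 genes, 4 were listed at 0 in all IAT libraries. The defining genes CSN2 of casein and FOXA1 were listed at 0 in all 12 libraries, and KRT14 in all IAT libraries. SOX9, a factor of cartilage, neural crest and several epithelia, was higher in PCAT at 0.248 to 0.79 FPKM in IAT (median 0.477) and 2.87 to 5.24 FPKM in PCAT (median 4.11) (-2.85 ± 0.20, adjusted p = 0.00121), with no overlap. TFAP2B was higher in PCAT, with a difference of -1.81.

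Of 37 tested immediate early and stress genes, 5 were higher in PCAT and 0 in IAT (13.5% called, against 2.43% of all gene models). The median difference was -0.01. The called members were HSPA1A, HSPA1B, DNAJB1, HSPH1 and HSPB1, which are chaperones or their partners. HSPA1A was at 21.7 to 41.9 FPKM in IAT (median 35.3) and 48.6 to 466 FPKM in PCAT (median 291) (-2.73 ± 0.42, adjusted p = 0.024). HSPA1B is a near-identical copy, so how reads were split between both is uncertain (-2.83 ± 0.45, adjusted p = 0.0259). The co-chaperone DNAJB1 was at 4.38 to 8.7 FPKM in IAT (median 6.17) and 10.1 to 45.6 FPKM in PCAT (median 37.6) (-2.24 ± 0.33, adjusted p = 0.0195), with PCAT 5 at 10.1 FPKM well under the other PCAT libraries. HSPH1 and HSPB1 were higher in PCAT, with differences of -1.95 and -0.94. These calls were not steady, since 0 genes of the list were called without animal 1, 3 or 6, 1 without animal 2 and 3 without animal 4.

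The difference between IAT and PCAT was set against that of the other depots of the same classes, the mean of BSAT and SSAT minus the mean of OAT and PRAT, in a fit of all 36 libraries. Both differences come from the same 6 animals and share no library. Of 17688 gene models, 179 (1.01%) differed between them, 75 (0.424%) with a larger value and 104 (0.588%) with a smaller value of IAT minus PCAT. The counts were 66 and 69 without animal 1, 38 and 33 without animal 2, 39 and 84 without animal 3, 52 and 70 without animal 4, 62 and 73 without animal 5, and 18 and 25 without animal 6. Of the 430 calls, 81 (18.8%) were among them. For 34 gene models higher in IAT and 46 higher in PCAT the difference lay further in its own direction than that of the other depots, also where theirs had the opposite sign, and for 1, TBX15, it was smaller.

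Of the HOX genes, 16 of 22 values were larger and 0 smaller, against 0.424% and 0.588% of all gene models. Of the 29 limb and body wall factors, 2 were larger and 6 smaller, with a median of -0.49. HOXC6 had a mean FPKM of 13.3 in BSAT, 20.2 in SSAT, 7.55 in OAT and 20.3 in PRAT, and its difference between IAT and PCAT was larger than theirs by 6.07 ± 0.52 (adjusted p = 3.38e-08). The mean level over 6 libraries was lowest in PCAT among the 6 depots for 20 of the 22 HOX genes and in OAT for 2. HOXA9 was as low in OAT as in PCAT (means of 0.0791 and 0.0813 FPKM). HOXA10 and HOXC10 had their highest means in IAT, at 3.29 and 0.614 FPKM. The next highest, both in PRAT, were 1.44 and 0.424 FPKM. The summed HOX levels placed PCAT below the other 5 depots rather than IAT above them. They had medians of 130.2 in IAT, 126.3 in BSAT, 157.2 in SSAT, 95.9 in OAT, 163.1 in PRAT and 31.5 FPKM in PCAT, although the lowest OAT library, at 32.5 FPKM, lay within the PCAT range. DMRT2 had its lowest mean in PCAT too, with mean FPKM of 33.8 in BSAT, 8.18 in SSAT, 5.44 in OAT and 14.6 in PRAT and a difference larger by 5.09 ± 0.88 (adjusted p = 0.00182). PITX1 had a mean FPKM of 1.59 in BSAT, 0.0259 in SSAT, 2.61 in OAT and 0.222 in PRAT. The BSAT mean rested on 1 library at 9.41 FPKM, since 4 of the other 5 were listed at 0. Its value of IAT minus PCAT was larger than theirs by 6.43 ± 0.94 (adjusted p = 0.000202), and by 6.89 without animal 1, the animal of that library (adjusted p = 5.93e-06).

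TBX15 went the other way. It was at 62.7 to 84.6 FPKM (median 78.1) in BSAT and 53.4 to 126 FPKM (median 67.1) in SSAT, at 0.296 to 2.35 FPKM (median 0.889) in OAT and 0.287 to 3.44 FPKM (median 1.59) in PRAT, and at the PCAT level given above. Among the visceral depots PCAT alone had a clear TBX15 level, and the value of IAT minus PCAT differed from that of the other depots by -4.86 ± 0.48 (adjusted p = 4.77e-07). TBX5 was at a mean FPKM of 1.41 in BSAT, 5.37 in SSAT, 0.405 in OAT and 0.847 in PRAT, and its IAT minus PCAT value differed from theirs by -4.94 ± 0.61 (adjusted p = 2.56e-05).

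GATA4 was found at a clear level in PCAT alone among the 6 depots. It was listed at 0 in all BSAT and SSAT libraries, and reached 0 to 0.163 FPKM (median 0) in OAT and 0 to 0.136 FPKM (median 0) in PRAT (adjusted p = 6.46e-15 for the difference of differences). SIX2 and CASQ2 also lay further towards PCAT, by differences from the other depots of -5.35 ± 0.88 and -5.05 ± 0.68 (adjusted p = 0.0011 and 6.79e-05), although SIX2 reached 0.0914 to 11.9 FPKM (median 2.97) in OAT. TCF21 was shared in part with other visceral fat, at 1.98 to 5.31 FPKM (median 3.92) in OAT and 0.0596 to 3.51 FPKM (median 0.837) in PRAT, and it differed from the other depots by -2.70 ± 0.51 (adjusted p = 0.00498). WT1, DLK1, SOX10 and TBX4 were not shown to differ from the other depots (adjusted p = 0.743, 0.123, 0.113 and 0.147). TBX4 was shared in part with other subcutaneous fat. It was at 0.242 to 92 FPKM (median 24.2) in BSAT and 1.24 to 22.3 FPKM (median 10.5) in SSAT. Its difference from the other depots was 3.62 ± 1.26. Of the Schwann and nerve list 2 of 22 genes had a value further towards PCAT, against 0.588% of all gene models.

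**Figure D5:**
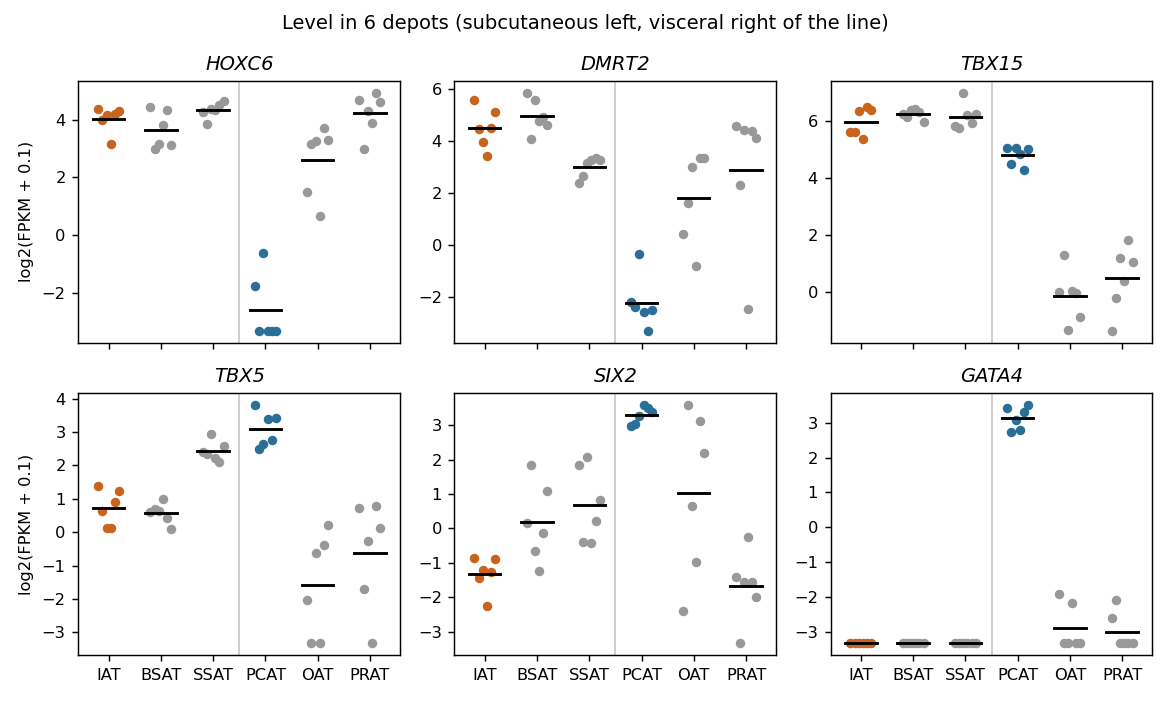
Level on the log2(FPKM + 0.1) scale (vertical axis) of 6 genes in the 6 libraries of each of 6 depots (horizontal axis), with IAT in orange, PCAT in blue, the other depots in grey and black bars at the means. HOXC6 and DMRT2 are low in PCAT, TBX15 is high in PCAT but low in OAT and PRAT, and GATA4 lies above 6 FPKM in PCAT and near 0 in the other 5 depots.

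Males and females were compared on the same differences, with 3 animals each. No gene model passed the threshold in limma's test of the sex term (0.0%), 718 (4.06%) had an unadjusted p under 0.05, and no other tool was run. For HOXC9 the difference between the depots was 5.28 in males and 6.00 in females, for TBX4 6.82 and 7.50, for TCF21 -6.14 and -6.16, and for SOX10 -3.17 and -4.25. With 3 pairs each, 4 gene models were called higher in IAT and 6 higher in PCAT in males alone, and 0 in females alone.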

How the data were processed

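RNA from 6 fat depots of 6 river buffaloes was sequenced, and the IAT and PCAT libraries are compared here. Per the study's methods, the authors aligned reads with HISAT2 2.2.1 and assembled and quantified transcripts with StringTie 2.1.4, and they deposited 1 table of FPKM values per gene model. The methods state depletion of ribosomal RNA, while the labels name a TruSeq RNA LT kit, and this disagreement was not settled. Among its 23032 gene models, 6773 carried no symbol, 1242 symbols had more than 1 model (the model with the highest mean is given), 8 symbols had a frog suffix removed, and 117 models had values equal to those of another model. No value column (0) was without a sample.

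Differences were fitted to log2(FPKM + 0.1) with limma 3.58.1 (R 4.3.3, empirical Bayes with a mean trend), with the animal as a block, for the 17688 models with a mean FPKM over 0.1 in 36 libraries. Tables and figures were made with Python 3.11.15, numpy 2.4.6, pandas 2.3.3 and matplotlib 3.10.9. The scripts were tested on simulated data. Titles name the same buffalo for both depots, and deviations of its 2 libraries from the depot means correlated at 0.272, 0.0642, 0.227, 0.209, 0.158 and 0.285 in animals 1 to 6, against a mean of -0.0371 for other pairs.

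Genes named are the 15 with the largest change in each direction (mean FPKM of at least 1, same sign in 6 of 6 animals), up to 5 called members of each list (all of a family of at most 16), genes the study names, and 8 that differ from other depots; members named beyond these were picked after their values were seen. The gene lists, 47 in all, and the comparison were chosen with earlier results of these data known. Alternatives were pseudocounts of 1 and 0.01, no filter or a mean FPKM of at least 1 or 10, TPM scaling, quantile normalization, no block, all 36 libraries, 1 sex alone, leaving out animals, and lymphocyte or mesothelium covariates, the last added after the data were seen. Sex and the other depots were tested in limma as interactions. Gene symbols such as LEP and PLIN1, which the table does not pair with a model, were not analysed here. A few other genes are not reported here and were left out of the lists, their counts, medians and sums.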

Additional observations from a re-analysis of the deposited data

Results flagged for a closer look

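In 206 groups of 6 libraries, each 1 named gene in 1 depot, the lowest or highest library was tested for its distance from the other 5, and chance flags about 1 in 20 such groups. There were 15 flags, 8 of them for HOX and limb or somite genes in PCAT, where most libraries were listed at 0 or close to it and a single low value stood apart. PCAT 3 was the separate library for DMRT2 (0.688 FPKM), HOXC8 (0.139 FPKM), HOXA10 (0.137 FPKM) and HOXC10 (0.0288 FPKM). PCAT 6 was so for HOXB9 (0.181 FPKM), HOXB8 (0.0253 FPKM) and HOXD10 (0.0797 FPKM), and PCAT 4 for PITX1 (0.173 FPKM). In IAT, WT1 at 0.113 FPKM and XIRP2 at 0.0705 FPKM were above 0 in IAT 3 alone.

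IAT 4 was the separate library in 2 genes. HOXC6 was at 8.73 FPKM there against 15.6 to 20.5 FPKM in the other IAT libraries, and GDF10 at 0.331 FPKM against at most 0.0811 FPKM. The co-chaperone DNAJB1 was at 10.1 FPKM in PCAT 5 and 26.1 to 45.6 FPKM in the other 5. The mast cell gene MS4A2 was at 3.6 FPKM in IAT 2 against 10.04 to 15.5 FPKM, and COL28A1 was at 15.1 FPKM in PCAT 1 against 0.391 to 1.65 FPKM.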

How the results depend on the processing

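The 144 and 286 calls higher in IAT and in PCAT became 157 and 178 after quantile normalization, 27 and 77 among gene models with a mean FPKM of at least 10, and 255 and 469 in a fit of all 36 libraries. With the mean log2 mesothelial level as a covariate, an alternative chosen after seeing the data, they were 359 and 573. The median of all gene models was then -0.18. Within males they were 4 and 6, and within females 0 and 0. Leaving out each animal in turn gave 57 to 148 higher in IAT and 71 to 314 higher in PCAT. The other alternatives stayed within 1.5 times of the main counts. Against the other depots, the 75 larger and 104 smaller values became 18 to 66 and 25 to 84 without 1 animal, and 60 values were smaller among gene models with a mean FPKM of at least 1. Under every alternative that was run for it, the test of sex gave 0 calls.

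Without the replicate block, which leaves the pairing by animal out of the fit, 144 gene models were higher in IAT and 304 in PCAT, 323 of these 448 shared with the 430 of the paired fit. Against the other depots, 46 values were larger and 58 smaller without the block. Of the 103 named genes past the threshold, 89 stayed past it without the block, 46 to 85 without 1 animal, 72 without animals 2 and 4 and 70 with the mesothelial covariate, and the cause was not tested. No named gene past the threshold changed sign. The table holds no counts, so what depth limits is unknown.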

Other observations

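Some called genes were on no gene list and were picked for mention after their values were seen. AQP4, a water channel of glial cells, was at 0.683 to 7.84 FPKM in IAT (median 3.1) and 18.7 to 70.8 FPKM in PCAT (median 31.7), a difference of -3.48 ± 0.41 (adjusted p = 0.00858). ANK3, the ankyrin that anchors sodium channels in axons, was at 16.8 to 41.8 FPKM in IAT (median 21.2) and 97.3 to 279 FPKM in PCAT (median 176) (-2.90 ± 0.31, adjusted p = 0.00542). CNKSR2, a scaffold of synapses, GRIK3, a glutamate receptor subunit, and PCDH11X, a protocadherin, had differences of -3.46, -3.04 and -2.83. SLITRK6, a membrane protein that acts in neurite growth, had a difference of -2.74. In these 6 genes every PCAT library lay above every IAT library. HK2, a hexokinase, was at 9.5 to 13.7 FPKM in IAT (median 10.9) and 24.9 to 99.3 FPKM in PCAT (median 47.6) (-2.13 ± 0.26, adjusted p = 0.00967), and CYP1B1, a cytochrome P450 enzyme, at 10.6 to 27.6 FPKM in IAT (median 17.1) and 42 to 175 FPKM in PCAT (median 86.9) (-2.27 ± 0.30, adjusted p = 0.0132), also without overlap.

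Among those higher in IAT, ZFHX4, a zinc finger homeobox factor, was at 73.6 to 185 FPKM in IAT (median 170.1) and 15.5 to 24.9 FPKM in PCAT (median 22), a difference of 2.68 ± 0.22 (adjusted p = 0.00174). A2M, the plasma protease inhibitor alpha-2-macroglobulin, has more than 1 gene model, and the more abundant was at 168 to 404 FPKM in IAT (median 263) and 31.2 to 89.3 FPKM in PCAT (median 54.7) (2.26 ± 0.17, adjusted p = 0.00154). TNFSF11, the ligand RANKL of bone turnover, was at 1.07 to 3.76 FPKM in IAT (median 1.84) and 0 to 0.785 FPKM in PCAT (median 0.263) (2.69 ± 0.50, adjusted p = 0.0432). TRPC4, a calcium channel, MYOC, the secreted protein myocilin, and VIT, the matrix protein vitrin, had differences of 2.73, 2.77 and 3.62, each without overlap. AQP3, a channel for water and glycerol, was at 31.3 to 159 FPKM in IAT (median 50.2) and 7.66 to 38.8 FPKM in PCAT (median 22.7) (1.79 ± 0.20, adjusted p = 0.0069), and its ranges overlapped.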
